A study of Caenorhabditis elegans with 45 samples.

Results

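Lysozymes and small antimicrobial proteins of the nematode Caenorhabditis elegans were followed through 3 time courses of larval development. All rows of the count table whose gene symbol began with lys, ilys, spp, abf or cnc followed by a number were taken, which gave 59 of 20182 genes: 10 lys genes, 6 ilys genes, 26 spp genes, 6 abf genes and 11 cnc genes. All 59 are annotated as protein coding. Polyadenylated RNA of whole worms was sequenced in 45 libraries, 1 for each time point, so no time point had a replicate. Within a course, p-values measure only how libraries scatter around a fitted curve. Between courses, they measure only how the hours of each course scatter around its mean, and hours are not replicates of a course. In dauer exit, wild-type N2 dauer larvae (a resistant diapause stage that does not feed) were put on plates with OP50, an Escherichia coli strain used as food, and sampled at hours 1 to 22. In continuous development, N2 larvae hatched overnight and plated on OP50 gave 16 libraries, named hours 21 to 36. Their labels give 22 to 37 h in development, a gap that the submitters put down to slow growth, and the hours of the names are used here. The third course was glp-4(bn2), a temperature-sensitive mutant with few germ cells at the restrictive temperature, grown continuously on OP50, with 7 libraries at hours 40 to 52. The sources used here do not state growth temperatures. No unfed dauer library was analysed here, and hour 1 after food is therefore the start of every comparison in dauer exit.

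C. elegans has no adaptive immune system and lives on bacteria, so its intestine secretes enzymes and peptides that both digest bacteria and restrain infection. The lys genes encode lysozymes of a protist-like type and the ilys genes lysozymes of the invertebrate type, which cut the peptidoglycan of bacterial walls. The spp genes encode saposin-like proteins, among them the caenopores that open bacterial membranes, the abf genes encode defensin-like antibacterial factors, and the cnc genes encode caenacins, small peptides known from the epidermis and its response to fungal infection.

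Library totals ranged from 18521397 to 23904100 counts for dauer exit, from 18512549 to 43984242 for continuous N2 and from 23978316 to 36817376 for glp-4. Values are given in CPM, the gene's share of the library total scaled to counts per 1000000, a level relative to the other RNA of the whole worm. Lower levels from fewer cells of a type cannot be told apart from less RNA per cell. Markers of intestine, epidermis, pharynx, neurons, body-wall muscle, germline and coelomocytes were all detected, and 8 germline markers summed to 45.1 to 72.3 CPM in glp-4 against 628 to 2240 in N2. The glp-4 library of hour 52 stood apart from the other 6. Against their median, 809 genes with exons under 600 b were higher there by a median of 0.58 on the log2 scale and 3353 genes of 2000 b or more were lower, with a median of -0.55. At the other hours the same medians ran from -0.14 to 0.17. Since 39 of the 59 members have under 600 b of exon, results of glp-4 are also given without that library.

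The share of all counts held by the 59 genes was 0.201 to 0.421% in dauer exit, 0.333 to 0.498% in continuous development of N2 and 0.562 to 1.09% in glp-4. Few of them carried most of this: 15 passed 100 CPM in some library, 20 stayed at 1 CPM or more in every library, and 13 stayed under 1 CPM in all 45. These 13 were lys-9, ilys-1, ilys-6, spp-6, spp-12, spp-20, abf-1, abf-3, cnc-1, cnc-5, cnc-7, cnc-9 and cnc-11. Levels between genes were compared per kilobase of exon, as means over all 45 libraries. These means pool courses in which the order differed. On that scale spp-14 (1345 CPM per kilobase) and spp-5 (1106), a caenopore that permeabilises bacteria, led, followed by lys-1 (974), spp-17 (692), spp-3 (403) and lys-8 (341). By the median over the libraries of each course, lys-1 (2126) stood above spp-14 (1854) in glp-4, and in continuous N2 lys-1 (687) stood below spp-17 (866) and ilys-5 (365) above spp-3 (322) and lys-8 (312). The highest in the other families were ilys-5 (264) and ilys-4 (12.3), cnc-8 (112) and cnc-10 (48.7), and abf-6 (17.4) and abf-5 (15.0). The highest defensin-like mean, that of abf-6, lay below those of ilys-5, cnc-8 and cnc-10 and above that of ilys-4.

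**Figure D1:**
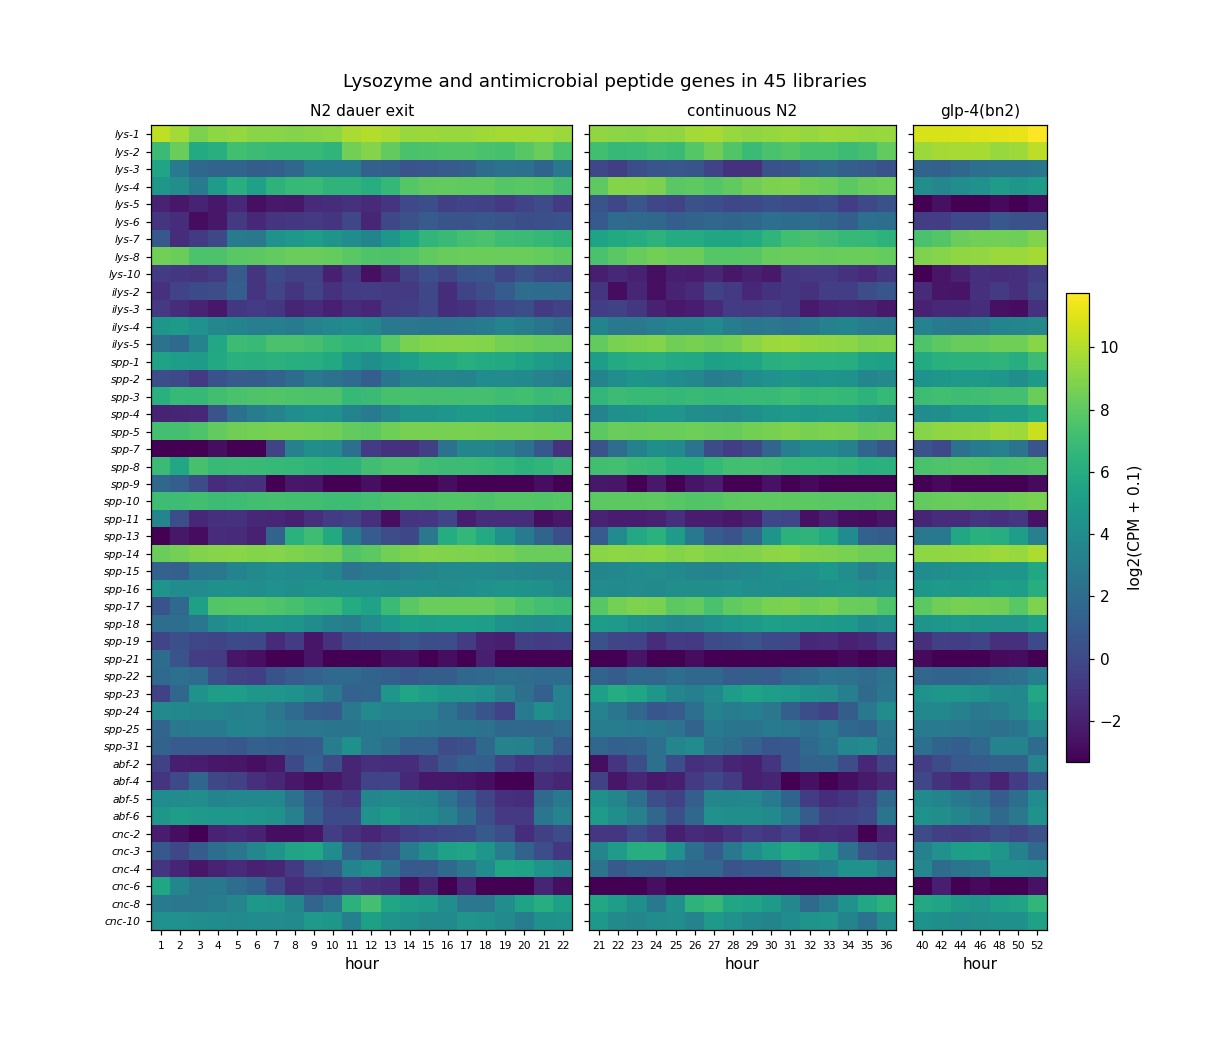
Level of each member with at least 1 CPM in some library (rows) in each of the 45 libraries (columns, by hour within each course), coloured by log2 of CPM plus 0.1. The rows of spp-7, spp-13, spp-17 and ilys-5 are darker at the first hours of dauer exit than later, cnc-6 is bright only at the first hours, and lys-1 is brightest in glp-4.

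The central question was how these genes behaved when dauer larvae met bacterial food. Between hours 1 and 8, 12 of the 37 members tested rose and 6 fell, while 22 did not pass the filter on low counts. A call required an adjusted p under 0.05 by edgeR's quasi-likelihood F-test and a fitted change of at least 1 on the log2 scale. Among all 13619 genes tested, 14.7% rose and 21.2% fell by the same rule, and the median fitted change was 0.36 for the members and 0.02 for all genes. The saposin-like genes made up 20 of the 37 tested, 7 of the 12 that rose and 3 of the 6 that fell. The other risers were lys-7, lys-4, ilys-5, cnc-3 and cnc-8. The genes that fell were spp-21, cnc-6, spp-9, lys-3, ilys-4 and spp-24. Of the 12 that rose, 5 also had a called wave in continuous N2, described below (26.3% of all genes tested there). Over all 22 hours of dauer exit 8 of the 12 were called higher (29.9% of all genes), and cnc-3, cnc-8, spp-3 and spp-1 were not. The part of the wave in these early rises was not tested. None of the 3 abf genes tested was called by edgeR, and none had an unadjusted p under 0.05. With library size alone as scaling, abf-6 (-1.08, adjusted p = 0.0477) and lys-1 (-1.04, adjusted p = 0.0282) were called lower, and so were abf-6 and abf-4 when hour 1 was left out.

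Among the lysozymes, ilys-5 (WBGene00017691; chromosome X, 6533490 to 6536840, build WBcel235, minus strand) was one of the strongest responders. It stood at 4.83, 3.47, 10.6, 52.2, 126, 112, 171 and 167 CPM at hours 1 to 8. The steepest step was between hours 2 and 5, and the fitted linear rise over the 8 h was 6.47 ± 0.88 (SE, log2, adjusted p = 0.00162). The level no longer rose from hour 7 to hour 8, so a straight line describes this course only roughly. The antibacterial lysozyme gene lys-7 (WBGene00003096; chromosome V, 3481432 to 3482600, minus strand), known to act in resistance to bacterial infection downstream of the FOXO factor DAF-16, started later. Its levels were 1.64, 0.29, 0.49, 0.84, 7.54, 6.53, 19.6 and 26.5 CPM, all low until hour 4, and the fitted rise was 5.60 ± 1.18 (adjusted p = 0.0034). The third riser, lys-4 (WBGene00003093; chromosome IV, 11621429 to 11623174, minus strand), first dipped and then climbed, with 24.5, 17.0, 7.24, 31.8, 68.4, 39.2, 85.2 and 108 CPM (rise 2.90 ± 0.75, adjusted p = 0.0103).

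Other lysozyme genes were high from the start. The most abundant, lys-1, was at 1255 CPM at hour 1, 435 at hour 3 and 487 at hour 8, and lys-8, which responds to the DBL-1 TGF-beta pathway in the intestine, went from 365 to 180 and back to 311 CPM at the same hours. Neither change passed the test (-0.81 ± 0.38, adjusted p = 0.0848, and 0.10 ± 0.39, adjusted p = 0.833). The gene lys-3, beside lys-1 and lys-2 on chromosome V, fell from 44.1 CPM at hour 1 to 7.70 at hour 2 and 3.28 at hour 8. Its fitted change of -3.43 ± 1.12 (adjusted p = 0.0136) rested on the first library: without hour 1 it was -0.99 and no longer called (adjusted p = 0.146). The invertebrate-type gene ilys-4 fell from 25.4 and 29.3 CPM at hours 1 and 2 to 8.42, 8.94 and 7.05 at hours 6 to 8 (-1.88 ± 0.26, adjusted p = 0.000533). The bacteria-digesting lysozyme gene ilys-3 reached at most 0.540 CPM through hour 10 and was not tested in these hours.

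The caenopore and saposin-like genes covered the widest span. The most strongly induced member that passed the test was spp-4 (WBGene00004989; chromosome X, 7318239 to 7318756, minus strand), at 0.17, 0.19, 0.22, 1.36, 4.58, 8.10, 10.7 and 16.5 CPM. The first 3 libraries held 13 of its counts in all, every later hour was above them, and the fitted rise was 7.69 ± 0.77 (adjusted p = 0.000142). Its neighbours in the 5-gene stretch from 7314969 to 7320354 rose too. The pore-forming spp-5 (WBGene00004990; chromosome X, 7319937 to 7320354) rose from a mean of 167 ± 21.7 CPM (SD over the libraries of hours 1 to 3) to 390 ± 11.2 at hours 6 to 8, spp-3 from 96.3 ± 18.9 to 196 ± 7.17, and spp-2 from 0.845 ± 0.330 to 2.81 ± 0.898. Their fitted rises were 1.89 ± 0.21, 1.68 ± 0.18 and 2.34 ± 0.52. The fifth gene of this stretch, spp-6, reached at most 0.341 CPM in the 45 libraries and was not tested.

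The saposin-like genes spp-15 and spp-18 also rose, spp-15 from 3.60 ± 1.94 CPM at hours 1 to 3 to 15.3 ± 1.48 at hours 6 to 8 (fitted rise 3.26 ± 0.34, adjusted p = 0.000237) and spp-18 from 4.70 ± 1.02 to 23.2 ± 1.53 (3.29 ± 0.48, adjusted p = 0.00141). The caenopore gene spp-1, whose protein is known to be antibacterial, rose less, from 35.8 ± 4.58 to 75.1 ± 6.49 CPM (1.55 ± 0.31, adjusted p = 0.0042). In spp-1 and spp-15 exons overlap a gene on the opposite strand, as they do in lys-8, spp-16 and spp-19. The sources used here do not say whether counting used the strand, so reads of these 5 genes and their partners may be mixed.

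A pair of neighbouring saposin-like genes on chromosome I stepped up between hours 2 and 4 and fell after hour 5, a shape that a straight line describes poorly. These were spp-17 (WBGene00005002; 1016405 to 1017176, plus strand) and spp-23, which lies 1666 b downstream on the same strand, and they are named here after their values were seen. The level of spp-17 was 1.43, 3.37, 37.7, 205, 221, 216, 194 and 163 CPM at hours 1 to 8, so hours 1 and 2 were far below hours 4 to 8. Its fitted linear change of 6.43 ± 1.56 missed the threshold (adjusted p = 0.0547), and with a quadratic term it was 7.29 with an adjusted p of 0.000396. The level of spp-23 was 0.67, 3.03, 20.5, 35.2, 35.2, 25.1, 23.1 and 20.6 CPM, with a linear change of 3.20 ± 1.28 (adjusted p = 0.156) and 4.25 with the quadratic term (adjusted p = 0.00128). By hour 11 spp-17 was down to 62.1 CPM and spp-23 to 2.60. Both rose again later, spp-17 to 326 CPM at hour 17 and spp-23 to 47.9 at hour 14.

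A later switch was seen in spp-7 and spp-13, which were too low in the first 8 hours to be tested there. No count of spp-7 was found at hours 1 to 3, where the floor of 3 counts over the 3 libraries corresponds to 0.0446 CPM. It was at 0.753, 9.29 and 17.8 CPM at hours 7, 8 and 9, and its mean of 9.29 ± 8.54 over those hours was at least 208-fold above that floor. The level of spp-13 was at most 0.281 CPM through hour 6, then 2.66, 78.3 and 134 CPM at hours 7 to 9, the highest value of this gene in any library. A smooth curve over the whole 22 h passed the F-test for both (adjusted p = 0.00174 for spp-7 and 0.00325 for spp-13). Its fitted end lay above its start, although by hour 22 the levels were back at 0.343 CPM for spp-7 and 1.13 for spp-13. Both also took part in the waves described below.

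Of the 6 genes that fell, cnc-6, spp-21, spp-9 and lys-3 had their highest level of the course in the first library after food. The caenacin gene cnc-6 (WBGene00000560; chromosome III, 1763522 to 1764902, plus strand) was at 47.4, 12.1, 6.09, 6.70, 4.01, 2.81, 0.854 and 0.298 CPM at hours 1 to 8, lower at hour 8 than at any earlier hour, with a fitted change of -5.76 ± 0.64 (adjusted p = 0.000179). In continuous N2 it had no count in 15 of 16 libraries and 0.0540 CPM in the other. Saposin-like spp-21 went from 3.86, 1.35 and 0.574 CPM at hours 1 to 3 to 0 at hours 7 and 8 (-8.25 ± 0.92, adjusted p = 6.89e-05). Its neighbour spp-9, 1926 b away on chromosome X and on the same strand, went from 3.32, 2.26 and 1.02 to 0.324, 0 and 0.0993 CPM at hours 6 to 8 (-5.61 ± 0.91, adjusted p = 0.000583), and without hour 1 or hour 3 it did not pass the filter and was not tested. A further saposin-like gene, spp-24, fell from 12.6 ± 1.13 to 6.70 ± 3.29 CPM (-1.26 ± 0.32, adjusted p = 0.0152). The gene spp-11, which did not pass the filter on low counts in the fit to hours 1 to 8, was at 11.3 CPM at hour 1, 1.11 at hour 2 and at most 0.773 thereafter, against a highest level of 0.867 in continuous N2.

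**Figure D2:**
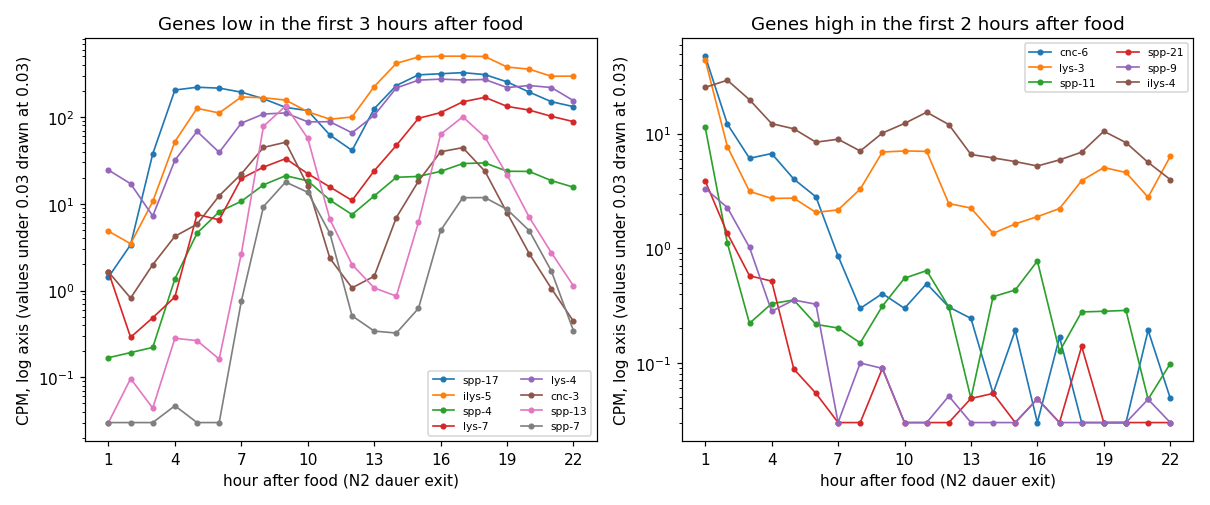
CPM (log axis) of 14 members against hours 1 to 22 of dauer exit, 1 point per library, with values under 0.03 drawn at 0.03. On the left, spp-17 and ilys-5 climb between hours 2 and 5, spp-4 and lys-7 between hours 3 and 9, and spp-13 and spp-7 at hours 7 to 9. On the right, cnc-6, lys-3, spp-11, spp-21, spp-9 and ilys-4 are highest at hour 1 or 2.

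Caenacins moved in both directions. As cnc-6 fell, cnc-3 (WBGene00000557; chromosome V, 1448004 to 1448792) rose from 1.64, 0.818 and 1.99 CPM at hours 1 to 3 to 12.4, 22.1 and 44.7 at hours 6 to 8 (5.60 ± 0.52, adjusted p = 9.62e-05), and cnc-8 rose from 6.79 ± 0.794 to 21.2 ± 7.89 (2.18 ± 0.57, adjusted p = 0.0141). The epidermal peptide gene cnc-2, a target of the DBL-1 pathway, was at most 0.596 CPM in the first 10 hours. The defensin-like abf-5 and abf-6, neighbours on chromosome X, were at 15.8 ± 0.708 and 28.6 ± 4.53 CPM at hours 1 to 3 and at 10.2 ± 4.49 and 18.0 ± 7.65 at hours 6 to 8, changes that did not pass the test (adjusted p = 0.129 and 0.105). By hour 10 they were at 0.746 and 0.944 CPM. The defensin-like abf-2, known as a bactericidal peptide of the pharynx, held 0.672 CPM at hour 1, 0.0540 to 0.144 at hours 2 to 7, and 2.54 at hour 9.

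The 12 genes that rose were called in each of 8 fits that left out 1 library, in which 12.6 to 14.6% of all genes rose. In these fits 5 to 7 members fell, beside 17.9 to 21% of all genes. Of the 6 that fell, 4 were still called without hour 1, where lys-3 and spp-9 were not, 5 without hour 3 and 5 without hour 8. The calls depended more on the length of the window. With hours 1 to 6 alone lys-7 (adjusted p = 0.0737), lys-4 (0.148), spp-2 (0.102) and spp-24 (0.209) were no longer called, and with hours 1 to 10 cnc-8 (0.52) and lys-3 (0.139) were not. Without hour 8 the change of spp-24 was -0.66 and below the threshold.

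Tissue markers moved over the same hours. From hours 1 to 3 to hours 6 to 8, the summed level of 10 intestinal markers went from 5510 to 6361 CPM down to 3093 to 4209. Of the 10, 2 rose and 4 fell, beside 14.7% and 21.2% of all genes. The sum of 10 neuronal markers went from 1887 to 2848 CPM down to 828 to 1011, and that of 8 pharyngeal markers from 2666 to 3341 down to 1000 to 1993. The sum of 10 epidermal markers went from 339 to 369 CPM up to 580 to 3444. No marker of these lists was at 0 throughout either window. Within continuous N2 alone the epidermal sum ran from 848 to 7320 CPM and the intestinal sum from 2573 to 5736. The 8 h wave described below was called there for 7 of the 10 epidermal and 4 of the 10 intestinal markers, beside 26.3% of all genes. The parts of tissue composition and of the wave in the marker sums and in the members' changes were not tested.

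Other genes of immunity and digestion gave the context, to be read beside the 14.7% of all genes that rose and the 21.2% that fell in these hours. None of 30 immune regulators rose by edgeR's test (1 at an unadjusted p under 0.05) and 5 fell: daf-16 (FOXO, -2.06 ± 0.29), pqm-1 (-2.02 ± 0.21), cebp-1 (-1.96 ± 0.62), hlh-30 (the TFEB homolog, -1.73 ± 0.14) and vhp-1 (a MAP kinase phosphatase, -1.23 ± 0.38), while the median of the list was -0.46. Of 21 other immune effector genes tested, 2 rose and 8 fell, with a median of -1.23. The infection response gene irg-1 fell most (-8.27 ± 1.26), and the C-type lectin gene clec-86 rose most (5.08 ± 0.59). In the C-type lectin family 14 of 101 genes tested rose and 37 fell, with a median of -0.72. Of 12 epidermal peptide genes tested, nlp-31 (4.03 ± 0.97) and nlp-30 (4.04 ± 0.99) rose and none fell, also at an unadjusted p under 0.05. Digestive enzyme genes had 7 of 26 rising and 2 falling, led by the cathepsin B gene cpr-6 (7.48 ± 0.86) and the lipase gene lipl-6 (6.78 ± 0.99).

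Over all 22 hours of dauer exit 16 of 46 members tested rose and 7 fell, when a smooth curve was tested and direction was read between hours 1 and 22. Among all 15977 genes 29.9% rose and 24.7% fell, so the share of members that rose lay near the background. Both fits share the first 8 libraries. The fitted change between the ends was largest for spp-7 and spp-13 (10.32 ± 4.18 for spp-13), whose waves this smooth curve cannot follow. Next came spp-4 (7.63 ± 0.75) and lys-7 (7.63 ± 1.01), followed by cnc-4 (7.59 ± 1.53) and ilys-5 (6.12 ± 0.82). By hours 15 to 22 lys-7 reached 88.6 to 169 CPM, with a median of 117, and ilys-5 reached 296 to 504, with a median of 435. The level of cnc-4 was at most 2.09 CPM through hour 10 and peaked at 48.6 CPM at hour 19. Body-wall muscle markers rose from 813 to 840 CPM at hours 1 to 3 to 9445 to 12420 at hours 15 to 22, so the RNA against which CPM is measured was not the same at both ends of the course.

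Many of the genes then kept rising and falling in a wave, fitted with a period of 8 h taken for the molting cycle. Fewer waves were called with a 7 h period, and late in dauer exit also without the linear term, as given in the last section. In continuous N2 an 8 h wave was called for 20 of 42 members tested (26.3% of all 15622 genes), with amplitudes of 0.55 to 3.14 (log2, peak over mean), 11 of them at 1 or more. In dauer exit from hour 11 to 22 it was called for 21 of 41 members (32.7% of all 15360 genes), and 15 members were called in both courses. The largest wave in N2 was that of spp-13 (WBGene00004998; chromosome X, 8417419 to 8418524), which swung between 1.36 and 89.1 CPM with a median of 15.8, an amplitude of 3.14 ± 0.10 and peaks at 23.8 and 31.8 h (SE 0.04 h). It was followed by cnc-3 (0.803 to 67.5 CPM, amplitude 2.44 ± 0.22, peak at 23.3 h), spp-7 (0.582 to 18.0 CPM, 2.11 ± 0.16, 24.3 h) and abf-5 (0.294 to 19.0 CPM, 2.11 ± 0.24, 28.7 h). The groups of peak times were spread over the cycle. Peaks between 21.6 and 24.6 h were found for ilys-3, spp-23, cnc-2, cnc-3, spp-2, lys-7, spp-13, spp-1, abf-2, spp-7 and lys-3, and peaks between 26.2 and 28.9 h for spp-31, ilys-4, abf-4, ilys-2, cnc-8, spp-24, abf-5, spp-19 and abf-6. Of the lys genes, the called waves were shallow, with 0.61 ± 0.06 for lys-7 and 0.91 ± 0.16 for lys-3.

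The first fitted peaks in hours 11 to 22 were at 16.6 h for cnc-3, 17.2 h for spp-13, 17.8 h for spp-7, 12.9 h for cnc-8, 14.3 h for abf-5 and 14.4 h for abf-6. Across the 15 members called in both courses, the peak in N2 came 5.84 to 7.34 h after that in dauer exit within the 8 h cycle, with a median of 6.60 h, and the mean of all 3468 genes called in both was 6.59 h. Each of the 15 lay within 1 h of that mean, as did 98.9% of all genes called in both, so the members' shift was that of all oscillating genes. Before this window, spp-13, spp-7 and cnc-3 had already peaked at hour 9, before their next high values at hour 17 or 18, and cnc-8 had a first high of 26.3 CPM at hour 6 and 152 at hour 12.

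**Figure D3:**
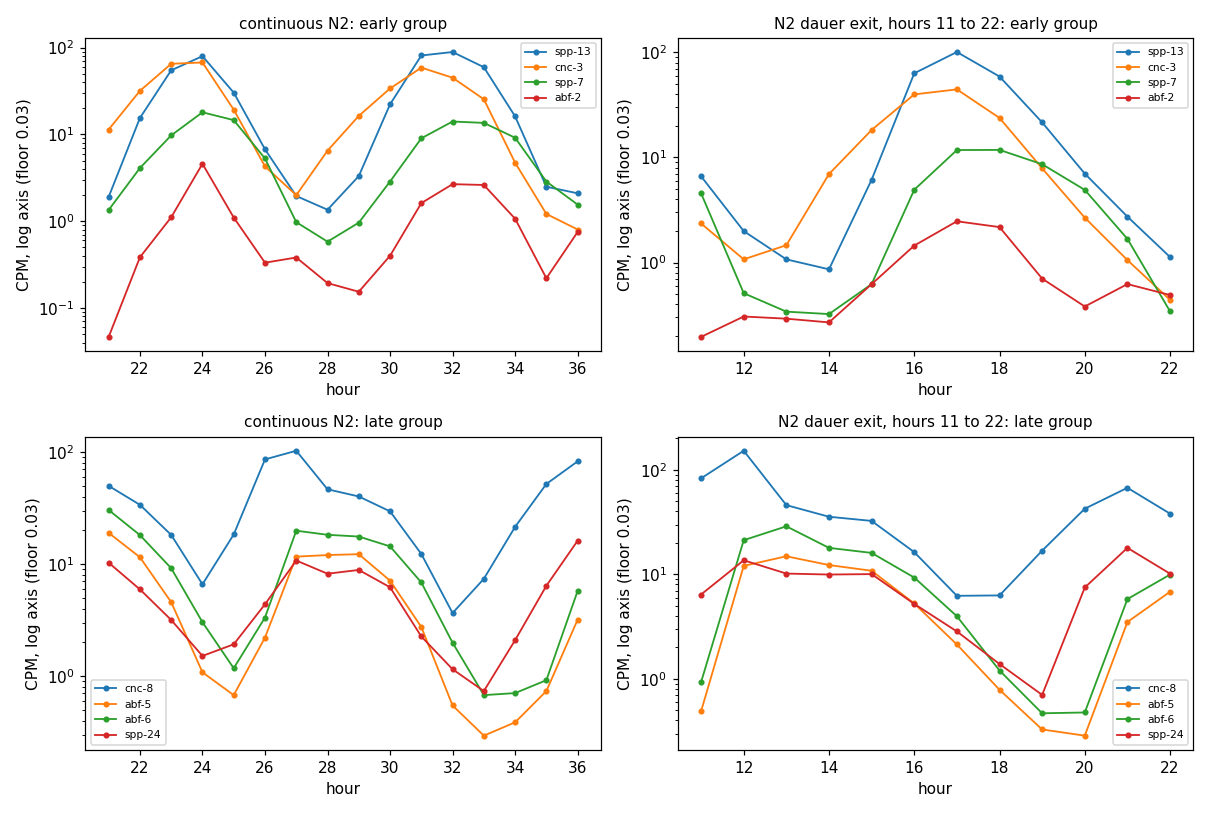
CPM (log axis, floor 0.03) of 8 members with large waves against hour in continuous N2 (left) and in hours 11 to 22 of dauer exit (right). The upper panels hold spp-13, cnc-3, spp-7 and abf-2, highest near hours 24 and 32 in N2 and near hour 17 in dauer exit, and the lower panels hold cnc-8, abf-5, abf-6 and spp-24, with a crest near hours 27 to 29 in N2 and near hours 12 to 14 in dauer exit.

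Beneath the wave, 5 members rose and 5 fell across continuous N2 (42 tested), against 20.6% and 15.3% of all 15622 genes. The risers were the lysozyme genes ilys-2 (2.32 ± 0.51), lys-10 (2.08 ± 0.56), lys-7 (1.59 ± 0.16) and lys-3 (1.25 ± 0.40), with spp-13 (1.14 ± 0.23). For lys-7 the lowest, median and highest levels were 43.0, 73.3 and 163 CPM, with the highest at hour 32. The other lysozymes in this group were rare, since ilys-2 reached at most 1.53 CPM, lys-10 0.50 and lys-3 3.32. Those that fell were abf-4 (-3.27 ± 0.81), abf-5 (-2.90 ± 0.58), abf-6 (-2.50 ± 0.65), spp-23 (-1.28 ± 0.44) and spp-19 (-1.27 ± 0.48). The level of abf-6 was 30.4 CPM at hour 21, 19.8 at hour 27 and 5.75 at the last hour sampled. Without the wave term 3 members rose and 1 fell. The shares of all genes called without that term were not counted, so these counts cannot be set against a background.

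When 1 whole cycle of late dauer exit, hours 15 to 22, was set against N2 hours 29 to 36, the summed levels of each family overlapped. The summed lys genes were at 1384 to 1752 CPM against 1357 to 1806, the spp genes at 1375 to 2004 against 1493 to 2312, the cnc genes at 67.1 to 111 against 58.9 to 108, and the ilys genes at 305 to 511 against 454 to 756. Of 41 members tested, 1 was higher and 1 lower (0.62% and 0.748% of all 14842 genes). The lysozyme-like gene lys-10 was higher after dauer, at 0.735 to 1.53 CPM against 0.10 to 0.50 (1.54 ± 0.29, adjusted p = 0.00215), and lys-6 was lower, at 1.14 to 1.92 CPM against 2.21 to 4.59 (-1.52 ± 0.16, adjusted p = 3.24e-05). By ranges alone lys-10 was above N2 in every library and lys-6 and spp-10 were below, of 41 members considered, beside 4.11% and 0.969% of all genes. The prosaposin-like spp-10 was at 186 to 220 CPM against 221 to 259 (-0.39 ± 0.04). Course, run and stage cannot be told apart in this comparison. Hours stood in for replicates of a course, and their spread holds the wave.

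Set against the first 4 hours of dauer exit instead, 12 of 41 members were below the whole range of continuous N2 and 1, cnc-6, was above it, where 10.4% of all genes were below and 22.4% above. The 12 were lys-4, lys-5, lys-6, lys-7, ilys-5, spp-2, spp-4, spp-7, spp-10, spp-13, spp-15 and cnc-4. Other lysozyme genes were not low in newly fed dauer larvae: at hour 1 the level of lys-1 was 1.42 times, and that of lys-8 1.01 times, its highest in N2.

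In glp-4 the summed lys genes reached 3139 to 5868 CPM and the spp genes 2150 to 4318, against 1357 to 1806 and 1493 to 2312 in N2 hours 29 to 36, while the ilys genes were at 199 to 542. Of the 46 members at 1 CPM or more somewhere, 27 had their highest course median in glp-4, 11 in dauer exit and 8 in continuous N2. This count was not made over all genes, so it is not known to be particular to the members. Against N2 hours 29 to 36, which also served in the comparison with dauer exit, 8 of 40 members tested were higher in glp-4 and 3 lower, beside 9.05% and 20.2% of all 15257 genes. The higher ones were lys-2, lys-1, lys-7, cnc-2, lys-3, lys-8, spp-5 and spp-16. Hours stood in for replicates of a course in this test, so its p-values do not measure variation between cultures. Strain, age and course cannot be told apart here, and 8 of 8 germline markers were lower in glp-4 by the same test. The part of the missing germline RNA in the members' differences was not tested.

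Within the lys family the difference went both ways. The lowest, median and highest levels of lys-1 (WBGene00003090; chromosome V, 10277904 to 10279056) were 1773, 2039 and 3321 CPM in glp-4 against 589, 665 and 732 in N2, and the ranges did not overlap (1.82 ± 0.14, adjusted p = 4.29e-08). For its neighbour lys-2 (10280307 to 10281474) they were 681, 844 and 1216, all above the N2 libraries, whose median was 165 and whose highest was 273 (2.38 ± 0.17, adjusted p = 1.56e-08). The levels of lys-7 were 172, 345 and 465 against 58.2, 106 and 163 CPM (1.62 ± 0.25, adjusted p = 5.16e-05), and those of lys-8 461, 615 and 828 against 228, 307 and 323 (1.18 ± 0.14, adjusted p = 4.05e-06). The 3 genes that were lower lie side by side on chromosome IV between 11621429 and 11627947. The levels of lys-4 were 12.3, 19.4 and 32.2 CPM in glp-4 against 250, 345 and 443 in N2 (-3.88 ± 0.21, adjusted p = 2.28e-09). For lys-5 they were 0, 0 and 0.0568 against 0.591, 1.01 and 1.22 (-5.46 ± 0.60, adjusted p = 5.42e-08), and for lys-6 0.57, 0.914 and 1.59 against 2.21, 4.03 and 4.59 (-1.79 ± 0.25, adjusted p = 2.36e-05). The ranges of all 3 lay wholly below those of N2. The sources used here do not say how reads shared by similar genes were assigned, so single genes of the lys-1 to lys-3 and lys-4 to lys-6 groups are uncertain where their sequences are alike.

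Among the caenopore genes spp-5 stood at 519, 663 and 1473 CPM (lowest, median, highest) in glp-4 against 328, 395 and 461 in N2 (1.07 ± 0.20), and spp-16 at 24.7, 27.8 and 66.8 against 15.7, 17.5 and 20.7 (1.06 ± 0.20). Without the glp-4 library of hour 52, lys-2, lys-1, lys-7, cnc-2, lys-3 and lys-8 were still called higher and all 3 lower genes still lower, but spp-5 and spp-16 were not. That library was left out after the data had been seen. By ranges alone 9 of 40 members were above N2 in every glp-4 library and 3 below (7.57% and 25.6% of all genes considered). The caenacin cnc-2 was at 0.516 to 1.22 CPM in glp-4 and 0 to 0.715 in N2 (1.47 ± 0.45, adjusted p = 0.0106). Beside the members, 20 of 22 other immune effector genes were higher in glp-4 and none lower (0 also at an unadjusted p under 0.05). Their median was 2.34, led by dod-24 (4.57 ± 0.21), and 10 of 28 digestive enzyme genes were higher. Among all genes tested, 9.05% were higher and 20.2% lower. The 10 intestinal markers summed to 3828 to 5634 CPM against 2573 to 4518 in N2, and none of the 10 was called, although 6 were higher at an unadjusted p under 0.05.

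Across hours 40 to 52 of glp-4, 6 of 44 members tested rose and none fell (0 at an unadjusted p under 0.05, and 0 by limma and DESeq2), against 5.17% and 1.53% of all 14407 genes. They were abf-2 (3.25 ± 0.50), spp-31 (2.14 ± 0.39), spp-4 (1.63 ± 0.21), lys-3 (1.55 ± 0.23), lys-4 (1.51 ± 0.28) and ilys-5 (1.28 ± 0.24), with adjusted p from 0.0232 to 0.0464. The levels of abf-2 were 0.575, 0.965, 1.74, 1.98, 2.33 and 2.38 CPM at hours 40 to 50 and 11.3 at hour 52. These calls depended on which libraries were included. Without hour 52, 11 members rose, among them all 6, and 2 fell (12.1% and 3.84% of all genes). Without hour 40, 7 rose, of which 3 were among the 6, and 0 fell (7.55% and 2.85% of all genes). Without hour 42, 44, 46, 48 or 50 none was called, where 0.119 to 0.991% of all genes rose.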

How the data were processed

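The authors deposited raw read counts for 20182 genes in 45 libraries made with a stranded mRNA kit, per the labels' protocols; the sources used here name no aligner, counting tool or build. Symbols matched 18778 identifiers (93.0%), and exon lengths, positions and strands came from Ensembl release 115 (WBcel235). The 59 members and all lists were chosen with earlier results of these data known. The smallest chi-square per gene between any 2 libraries was 17.5, so no library repeated another. CPM used the library total; no count rows without a gene were present.

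Counts were tested in R 4.3.3 with edgeR 4.0.16 (low-count filter, TMM, quasi-likelihood F-test, Benjamini-Hochberg adjustment over all genes): linear in the hour for dauer exit hours 1 to 8, a spline with 3 degrees of freedom over 22 hours, a linear term plus a cosine and a sine with a period of 8 h elsewhere, and course means over windows. Fitted changes use a prior count of 0.125. Calls needed adjusted p under 0.05 and a change of 1 (amplitude 0.5) on the log2 scale. Fits were tested on simulated data. Alternatives were other normalizations, filters, windows, periods, limma 3.58.1 and DESeq2 1.42.0, and leaving libraries out. Named genes were the largest called changes per family and course, the 2 most abundant per family, and lys-7, ilys-3, spp-1, spp-5, abf-2 and cnc-2; others were named after their values were seen. Floors of 3 counts cover counting error only.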

Additional observations from a re-analysis of the deposited data

Results flagged for a closer look

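In the glp-4 course 15 of 39 members with enough counts had 1 library farther from the others than Dixon's test allows at its 95% level, where chance flags about 1 group in 20. The share of all genes flagged by this rule was not counted, so the flags cannot be read as a trait of the members. All 15 were high in the library of hour 52, which also had higher levels of short genes, as given above. The gap to the nearest library was 0.88 of the range for spp-3 (328 CPM against 158), 0.83 for abf-2 (11.3 against 2.38), 0.75 for cnc-10 (39.4 against 21.0), 0.74 for spp-16 (66.8 against 35.6) and 0.72 for spp-15 (49.7 against 25.0). It was 0.69 for spp-5 (1473 against 811), 0.68 for spp-18 and for spp-24, 0.67 for spp-23 and for spp-25, 0.64 for lys-2 (1216 against 871) and 0.63 for spp-22. It was 0.59 for spp-14 and 0.58 for lys-1 (3321 against 2430) and for spp-1. The median of 33 members at hour 52 was 0.73 above the other 6 libraries on the log2 scale, and that of 809 short genes 0.58. The part of transcript length in these values was not tested.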

How the results depend on the processing

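No paired analysis was possible because there was 1 library per time point and replicate numbers only name libraries. No called result changed sign. The 12 early risers of dauer exit stayed within 1.5 times that count under every alternative run, and 12 to 14 were called when 1 library was left out. The 6 that fell became 10 without a count filter and 10 over hours 1 to 10. Over 22 hours the 7 that fell became 12 without a filter. In the N2 trend, the 5 that rose became 8 with DESeq2, 11 without a size threshold, 2 with it doubled and 3 without the wave term, and the 5 that fell became 3 with library size only, 3 with the threshold doubled and 1 without the wave term. The 20 waves in N2 became 32 without the threshold, 11 with it doubled and 8 with a 7 h period, and the 21 late in dauer exit became 11 with it doubled, 6 with a 7 h period and 7 without the linear term. The 6 rising in glp-4 became 15 with DESeq2, 2 with the threshold doubled and 12 without the wave term, and ran from 0 to 11 when 1 library was left out, while the 0 falling ran from 0 to 2. Between late dauer exit and N2, the 1 higher became 4 with library size only, 2 with limma, 4 with DESeq2, 2 without the threshold, 0 with it doubled, 2 with both windows 1 h earlier and 5 against N2 hours 21 to 28; the 1 lower became 6 without the threshold and 0 with it doubled. The 8 higher in glp-4 than in N2 became 15 without the threshold and 1 with it doubled. The cause was not tested, and the share of all genes called was not counted for every alternative. Motif counts in promoters were not run, since no promoter sequence was used here.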
